A study of Oryctolagus cuniculus with 16 samples.

Results

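A set of 10 genes of the basal layer and the cell junctions of stratified squamous epithelium were looked up by symbol, ignoring case, in the table of read counts for the rabbit vaginal wall. Of these 10, 7 had a row among the 13001 named genes: the transcription factor gene TP63, the keratin genes KRT5 and KRT15, the desmosome genes DSC3, PKP1 and DSP, and COL17A1, which encodes a hemidesmosome protein. All 7 passed the filter on low counts. KRT14, DSG3 and SFN had no row under these symbols and were not analysed here.

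The study asked how the vaginal wall responds to surgery with a graft that carries autologous tissue particles (PLATE) and to surgery with a graft without particles (acellular). RNA came from juvenile female New Zealand White rabbits of 17 to 19 weeks, in 16 libraries. Of these, 6 were of unoperated animals (control), 3 of sham-operated animals, 3 of the acellular group and 4 of the PLATE group. Tissue of the acellular and PLATE groups was taken at a distance of 10 mm from the graft zone. The labels give neither the sampling distance of the sham and control tissue nor the time after surgery, so that sampling site and graft cannot be told apart in comparisons with those groups. Each library carries its own animal number within its group (the number 9 is used for 1 control library and 1 PLATE library). Libraries are named here by group and animal number.

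In a stratified epithelium the basal cells rest on the basement membrane through hemidesmosomes, divide, and send daughter cells upwards that change their keratins and form a tough surface. p63, the protein of TP63, is the master regulator of this basal state, and keratin 5 with its partner keratin 14 builds the filaments of basal cells. Desmosomes join the filaments of neighbouring cells, through cadherins such as desmocollin 3, the linker plakophilin 1 and desmoplakin, which ties the complex to keratin. Desmoplakin is also present in simple epithelia. In the rabbit, columnar epithelium lines much of the vagina and stratified squamous epithelium lies nearer its opening.

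Libraries held 15348880 to 23236339 counts on named genes. Levels are given as CPM, counts relative to the effective library size, which is a total over named genes multiplied by the library's TMM factor. This size lay below the named-gene total in control 2 and above it in control 9, so CPM values do not follow from the named-gene totals alone. The tissue check used hormone receptor and HOX genes, and ESR1, the oestrogen receptor, ranged from 46.8 CPM in PLATE 1 to 467 CPM. HOXD13, a positional gene of the lower urogenital tract, ranged from 55.4 to 322 CPM. Columnar epithelium markers were much lower in control 2 than in the other libraries: the summed level of the 20 markers in the table (27 were listed) was 41.3 CPM in control 2 and 540 CPM or more in every other library. PAX2, a transcription factor gene among these markers, was at 0 counts in control 2, where the simple-epithelium keratin KRT8 was at 9.27 CPM and the secretory cell gene AGR2 at 8.64 CPM. The smooth muscle markers summed to 176647 CPM in control 2, the highest of the 16 libraries, and to 10548 CPM in control 9, the lowest. PLATE 1 had a summed leukocyte marker level of 14740 CPM, against 3502 CPM at most elsewhere. Some results below were recomputed without control 2, control 9 or PLATE 1. Those values stand beside the results that moved, and the others with the alternative settings. In bulk tissue, fewer epithelial cells and less RNA per cell cannot be told apart.

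Among genes with a row, those of the upper layers of a stratified epithelium ranged from undetected to moderate levels. Of 49 genes listed for suprabasal keratins and the cornified envelope, 31 had a row, 13 passed the filter on low counts, and 15 stayed under 1 CPM in every library. Those without a row included KRT4, KRT13, IVL, SPRR3 and EVPL, so their levels are not known here. KRT1, a keratin of cornifying cells, had 27 counts over all libraries together and KRT2 had 16. KRT76 and KRT78, keratins of stratified oral and skin epithelium, had 6 and 18 counts. CRNN, the squamous protein cornulin, had 7 counts, and SBSN, suprabasin, had 2. DSC1, a desmocollin of cornifying layers from the desmosome list, had 0 counts in every library, where 3 counts would be 0.12 to 0.27 CPM. Other genes of the list were measured in every library: KRT10, the suprabasal partner of keratin 1, at 6.66 to 16.9 CPM, MAL, a membrane-trafficking protein, at 5.94 to 39.6 CPM, and CDSN, corneodesmosin, at 0.182 to 26.5 CPM, highest in control 2. These 10 genes were picked after their values were seen. The list thus gave no uniform check of the stratified squamous part of the name, and the members are called basal and junction genes below. Among the listed genes with the highest levels, which are not restricted to squamous cells, PPL, the desmosome-associated periplakin, ranged from 12.7 to 106.6 CPM, ECM1, an extracellular matrix protein, from 9.58 to 132 CPM, and TGM1, a crosslinking transglutaminase, from 3.24 to 68.9 CPM.

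TP63 differed between animals by far more than between groups. Among the controls its level was 0.180 CPM at the lowest (control 2, 2 counts), 1.28 at the median and 23.2 at the highest (control 29). In the sham libraries TP63 was at 0.792 CPM in sham 11, 2.68 CPM in sham 12 and 35.1 CPM in sham 14. In the acellular group it was at 22.0 CPM in acellular 6, 13.0 CPM in acellular 8 and 3.16 CPM in acellular 10. Every group thus had at least 1 high library: 6 libraries, control 16, control 29, sham 14, acellular 6, acellular 8 and PLATE 5, lay between 10.0 and 35.1 CPM. The PLATE libraries had 4.01 CPM in PLATE 1, 16.55 CPM in PLATE 5, 0.785 CPM in PLATE 9 and 0.590 CPM in PLATE 13. Within the sham group alone, where counts ran from 17 to 853, the highest TP63 level was 44.4 times the lowest. The standard deviation of its log2 CPM over the 16 libraries was 2.18, larger than that of 99.2% of the 10942 genes tested, for which the median was 0.433.

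**Figure D1:**
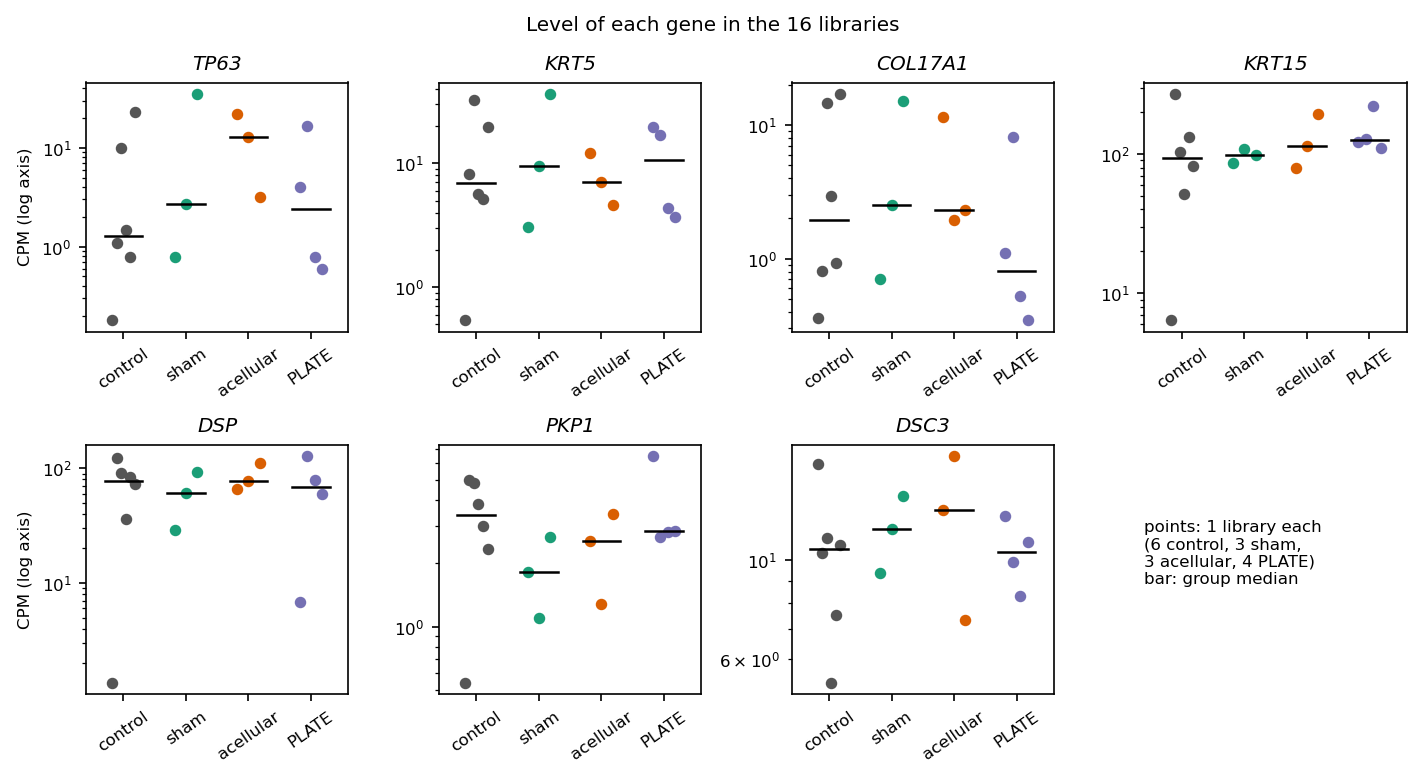
Level of each gene in CPM (log axis) in the 16 libraries by group; each point is 1 library and each bar a group median. TP63, KRT5 and COL17A1 spread over more than 10-fold within control and sham, while DSC3 stays between 5.30 and 17.1 CPM in all libraries.

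KRT5, the type II keratin of basal cells, ranged among controls from 0.540 CPM (control 2) through a median of 6.94 to 32.1 CPM (control 16). It was at 3.07 CPM in sham 11, 9.58 CPM in sham 12 and 36.4 CPM in sham 14. It was at 12.0, 7.06 and 4.64 CPM in acellular 6, 8 and 10. The order of libraries within these groups resembled that of TP63, with sham 14 and acellular 6 at the top. In PLATE 1, 5, 9 and 13 KRT5 was at 19.6, 17.0, 4.34 and 3.69 CPM, and PLATE 1 was high for KRT5 while its TP63 level was moderate.

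COL17A1 encodes collagen XVII, the transmembrane protein that anchors basal cells in the hemidesmosome. Among the controls it ranged from 0.360 CPM (control 2) through a median of 1.93 to 17.2 CPM (control 29). In sham 11, 12 and 14 its levels were 0.699, 2.54 and 15.2 CPM, and in acellular 6, 8 and 10 they were 11.5, 1.95 and 2.32 CPM. It was at 1.10, 8.21, 0.523 and 0.344 CPM in PLATE 1, 5, 9 and 13. The 5 libraries with the highest COL17A1 were all among the 6 that were high for TP63, and the exception was acellular 8. The groups overlapped in all 6 pairs for TP63, KRT5 and COL17A1.

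The levels of these 3 genes moved together across animals. The planned relations were those of TP63 and of KRT5 with every other member, 11 in all, on log2 CPM over the 16 libraries, with two-sided permutation p-values adjusted over the 11. TP63 and COL17A1 had Pearson r = 0.907 (permutation p = 1e-05, the smallest the resampling can give, adjusted 0.00011) and Spearman rho = 0.894 (permutation p = 2e-05). TP63 and KRT5 had r = 0.833 (permutation p = 2e-05, adjusted 0.00011) and rho = 0.853 (permutation p = 3e-05). KRT5 and COL17A1 had r = 0.789 (permutation p = 0.00013, adjusted 0.000477) and rho = 0.847 (permutation p = 9e-05). Each relation held without the 2 libraries farthest from the median of the gene on the x axis, sham 14 and control 2, with r = 0.878 for TP63 and COL17A1, 0.756 for TP63 and KRT5, and 0.762 for KRT5 and COL17A1. With group means removed the same r were 0.950, 0.901 and 0.851, so the relations were present among animals of the same group. Without control 2, control 9 and PLATE 1 they were 0.906, 0.852 and 0.916 (n = 13). None of the other 8 planned relations passed the threshold after adjustment, and TP63 with KRT15 had r = 0.25 (permutation p = 0.391), which became -0.295 without sham 14 and control 2.

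**Figure D2:**
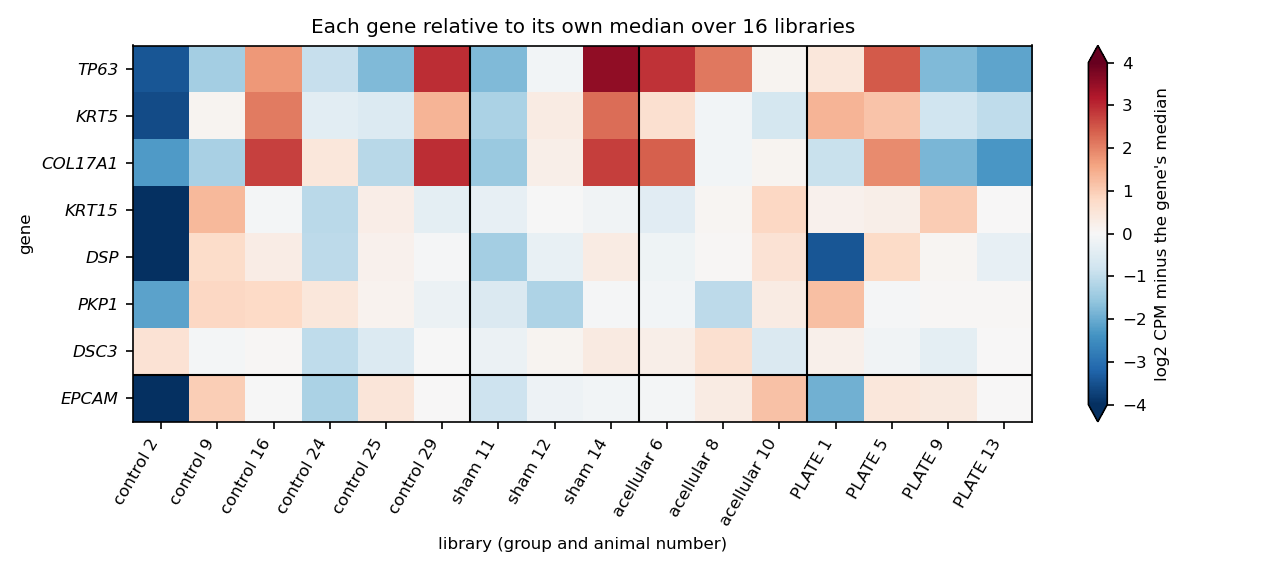
Log2 CPM of the 7 genes and of EPCAM minus the gene's median over the 16 libraries, with libraries ordered by group; colours are limited to 4 log2 units on either side. TP63, KRT5 and COL17A1 are red together in control 16, control 29, sham 14, acellular 6 and PLATE 5, whereas DSP and KRT15 follow EPCAM and are lowest in control 2.

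Over the 16 libraries KRT15 and DSP followed EPCAM, a columnar epithelium marker, more closely than they followed TP63 or KRT5. KRT15, a type I keratin known from basal cells, ranged among controls from 6.39 CPM (control 2) through a median of 93.4 to 271 CPM (control 9). It was at 86.9, 109.1 and 98.7 CPM in sham 11, 12 and 14, and at 79.9, 114.9 and 193 CPM in acellular 6, 8 and 10. In PLATE 1, 5, 9 and 13 it was at 123, 128, 220 and 110 CPM. Apart from control 2, all libraries lay between 51.7 and 271 CPM, a narrower range than that of TP63. KRT14, KRT18 and KRT19, close type I relatives of KRT15, were not among the named genes, and how reads shared between keratins were counted is not given in the sources used here, so the identity of the KRT15 counts is uncertain.

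DSP, desmoplakin, ranged among controls from 1.35 CPM (control 2) through a median of 78.1 to 123 CPM (control 9). In sham 11, 12 and 14 it was at 28.8, 61.2 and 93.1 CPM, and in acellular 6, 8 and 10 at 66.5, 76.9 and 110 CPM. In PLATE 5, 9 and 13 it was at 127, 79.3 and 59.2 CPM, but PLATE 1 had 6.86 CPM. DSP was thus low in the same 2 libraries in which EPCAM, the epithelial adhesion molecule, was lowest, control 2 with 1.71 CPM and PLATE 1 with 33.4 CPM of EPCAM. KRT15 was not low in PLATE 1.

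A further 17 relations, the other 10 pairs of members and each member with EPCAM, were computed after the data were seen and adjusted over the 17. DSP and EPCAM had r = 0.959 (permutation p = 1e-05, adjusted 0.00017) and rho = 0.826 (permutation p = 0.00022), with r = 0.866 without control 2 and PLATE 1. KRT15 and EPCAM had r = 0.919 (permutation p = 0.00022, adjusted 0.00187) and rho = 0.762 (permutation p = 0.00095), and r = 0.566 without control 2 and control 9. KRT15 and DSP had r = 0.799 (permutation p = 0.00567, adjusted 0.0321) and rho = 0.615 (permutation p = 0.0134, adjusted 0.0761). For that last relation r was 0.255 without control 2 and control 9, and 0.616 without control 2, control 9 and PLATE 1 (n = 13). Its strength thus depended on which of these libraries were kept. TP63, KRT5 and COL17A1 had r = 0.403, 0.539 and 0.314 with EPCAM, with adjusted permutation p = 0.195, 0.154 and 0.315. Without control 2, control 9 and PLATE 1 the same 3 values were 0.146, 0.0292 and -0.0223 (n = 13), against 0.845 for DSP and 0.841 for KRT15. Within the 6 controls r with EPCAM was 0.556, 0.828 and 0.451 for TP63, KRT5 and COL17A1. It was 0.996 for DSP, 0.981 for KRT15, 0.909 for PKP1 and -0.503 for DSC3. Among the planned relations DSP had r = 0.459 with TP63 and 0.543 with KRT5 (adjusted permutation p = 0.105 and 0.09). Without control 2, control 9 and PLATE 1 these were 0.484 and 0.492 (n = 13). All levels of a library share its effective library size. The summed smooth muscle markers ran from 10548 CPM in control 9 to 176647 CPM in control 2. The part of the scaling and of these markers in these relations was not tested.

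**Figure D3:**
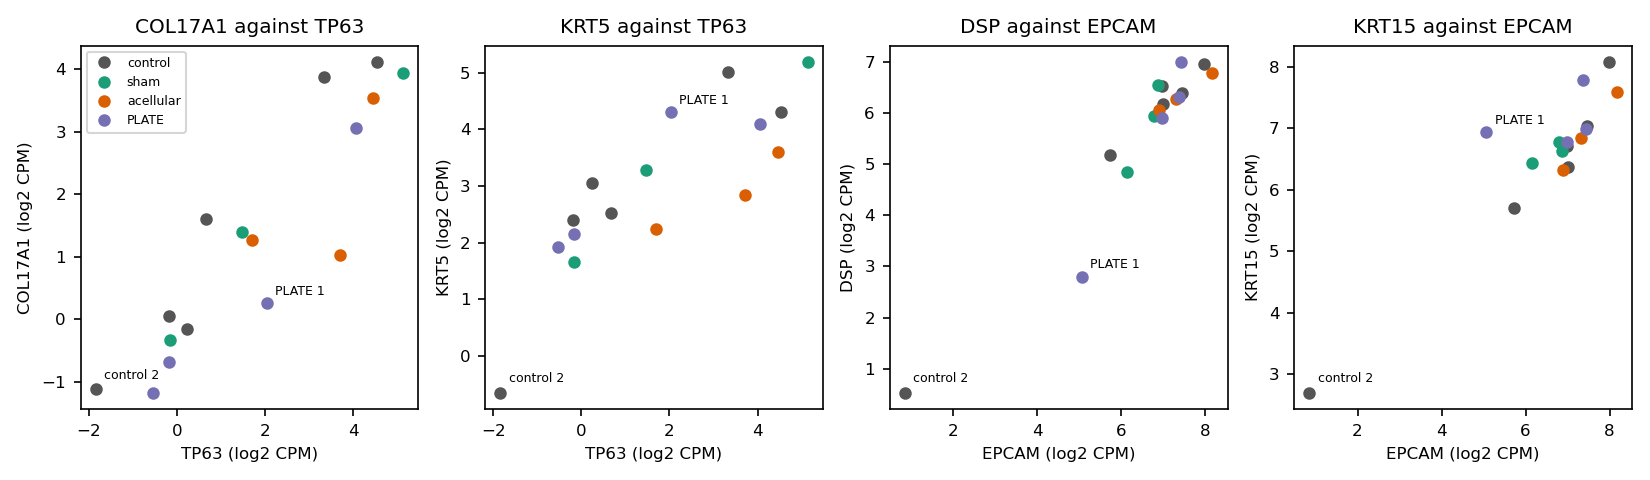
Log2 CPM of COL17A1 and KRT5 against TP63, and of DSP and KRT15 against EPCAM, 1 point per library coloured by group, with control 2 and PLATE 1 named. Points of all 4 groups are mixed along each relation (r = 0.907, 0.833, 0.959 and 0.919), and control 2 lies at the lower left of every panel.

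PKP1, the plakophilin of stratified desmosomes, was low in all libraries, from 0.540 CPM (6 counts in control 2) to 6.47 CPM (PLATE 1). Its controls had a median of 3.41 CPM and a highest value of 5.00 CPM (control 9). The levels in sham 11, 12 and 14 were 1.82, 1.10 and 2.68 CPM and those in acellular 6, 8 and 10 were 2.55, 1.28 and 3.45 CPM. In PLATE 5, 9 and 13, PKP1 lay between 2.66 and 2.85 CPM, within a narrow band that overlapped every other group. PKP1 and KRT5 had r = 0.571 (permutation p = 0.0229, adjusted 0.063), and rho was 0.238 (permutation p = 0.374).

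DSC3, desmocollin 3, the adhesive cadherin of basal layer desmosomes, varied least. Its controls ran from 5.30 CPM (control 24) through a median of 10.6 to 16.5 CPM in control 2, the library in which the other 6 genes were at or near their lowest. In sham 11, 12 and 14 it was at 9.36, 11.8 and 14.0 CPM, in acellular 6, 8 and 10 at 13.0, 17.1 and 7.35 CPM, and in the PLATE group between 8.32 and 12.6 CPM. The standard deviation of its log2 CPM, 0.436, was close to the median of all genes tested (0.433). DSC3 had r = -0.351 with EPCAM (permutation p = 0.184, adjusted 0.278), so its relation with EPCAM did not pass the threshold. That r was -0.68 without control 24 and acellular 8, and 0.16 without control 2, control 9 and PLATE 1 (n = 13). The 183 counts of DSC3 in control 2 were measured where EPCAM had 1.71 CPM.

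No member differed between groups beyond the spread among animals. By edgeR's quasi-likelihood test, 0 of the 7 genes passed an adjusted p of 0.05 in any of the 6 pairs of groups, in the mean of the 3 operated groups against control, or in the joint test of the 4 groups. The background was the same, with 0% of the 10942 genes called in each of these comparisons. At an unadjusted p under 0.05, again 0 of 7 members were found, against 2.98% of all genes for sham and control, 6% for acellular and control, 4.39% for PLATE and control, 4.87% for acellular and sham, 7.5% for PLATE and sham, 4.71% for PLATE and acellular, 3.88% for operated and control, and 4.8% in the joint test. The 4 groups accounted for 2.53% (KRT5) to 15.2% (PKP1) of the variance of a member's log2 CPM, against a median of 18.4% over all genes tested.

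Operated animals as a whole had a TP63 log2 fold change of 0.65 ± 1.03 against control (standard error, n = 10 against 6, edgeR adjusted p = 1). For KRT5 this difference was -0.08 ± 0.67, for COL17A1 -0.50 ± 0.92, for KRT15 0.18 ± 0.48, for DSP 0.05 ± 0.62, for PKP1 -0.35 ± 0.40 and for DSC3 0.17 ± 0.24. The median over the 7 members was 0.05, and that over all genes tested was -0.03. The standard errors of TP63 and COL17A1 were the largest of the 7, so that differences of that size were not detectable for them, and that of DSC3 was the smallest.

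The fitted differences farthest from 0 in any pair were those of COL17A1 and TP63 in PLATE. COL17A1 averaged 2.54 ± 3.79 CPM (SD, n = 4) in PLATE and 6.15 ± 7.68 CPM (n = 6) in control, a log2 fold change of -1.27 ± 1.21 (edgeR adjusted p = 0.998). With 1 library left out at a time this value ran from -3.24 (without PLATE 5) to -0.63 (without control 29). TP63 averaged 5.48 ± 7.54 CPM in PLATE and 12.9 ± 19.3 CPM in sham (n = 3), a log2 fold change of -1.23 ± 1.47 (edgeR adjusted p = 0.821). Without sham 14 that value was 1.66, so its sign rests on 1 library. PKP1 had the smallest p of the 7 genes in any pair: it averaged 3.70 ± 1.85 CPM in PLATE against 1.86 ± 0.789 CPM in sham, with a log2 fold change of 0.98 ± 0.61 (edgeR adjusted p = 0.69), and 0.57 without PLATE 1. KRT15 was the only member with groups that did not overlap in any pair, with 109.7 CPM at the lowest in PLATE and 109.1 CPM at the highest in sham. Groups did not overlap for 14.9% of all genes in that pair, for 3.69% in sham and control, 1.73% in acellular and control, 0.119% in PLATE and control, 18.3% in acellular and sham, and 0.00914% in operated and control, and 0 of 7 members did so in these other comparisons. For PLATE against sham the KRT15 log2 fold change was 0.56 ± 0.72 (edgeR adjusted p = 0.831).

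Between the graft types, TP63 had a log2 fold change of -1.21 ± 1.48 in PLATE against acellular, KRT5 0.50 ± 1.00, COL17A1 -1.04 ± 1.37 and DSP -0.31 ± 0.91 (edgeR adjusted p from 0.919 to 0.97). With 1 library left out at a time, TP63 ran from -2.84 (without PLATE 5) to -0.55 (without acellular 6) and KRT5 from 0.08 (without PLATE 1) to 0.93 (without acellular 6). Over the same omissions COL17A1 ran from -3.01 (without PLATE 5) to 0.26 (without acellular 6) and DSP from -0.80 (without PLATE 5) to 0.07 (without PLATE 1). The PLATE and acellular ranges overlapped for all 7 genes, where 4.97% of all genes had groups that did not overlap. Leaving out control 2, control 9 and PLATE 1 together gave 0 members called in every comparison as well.

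**Figure D4:**
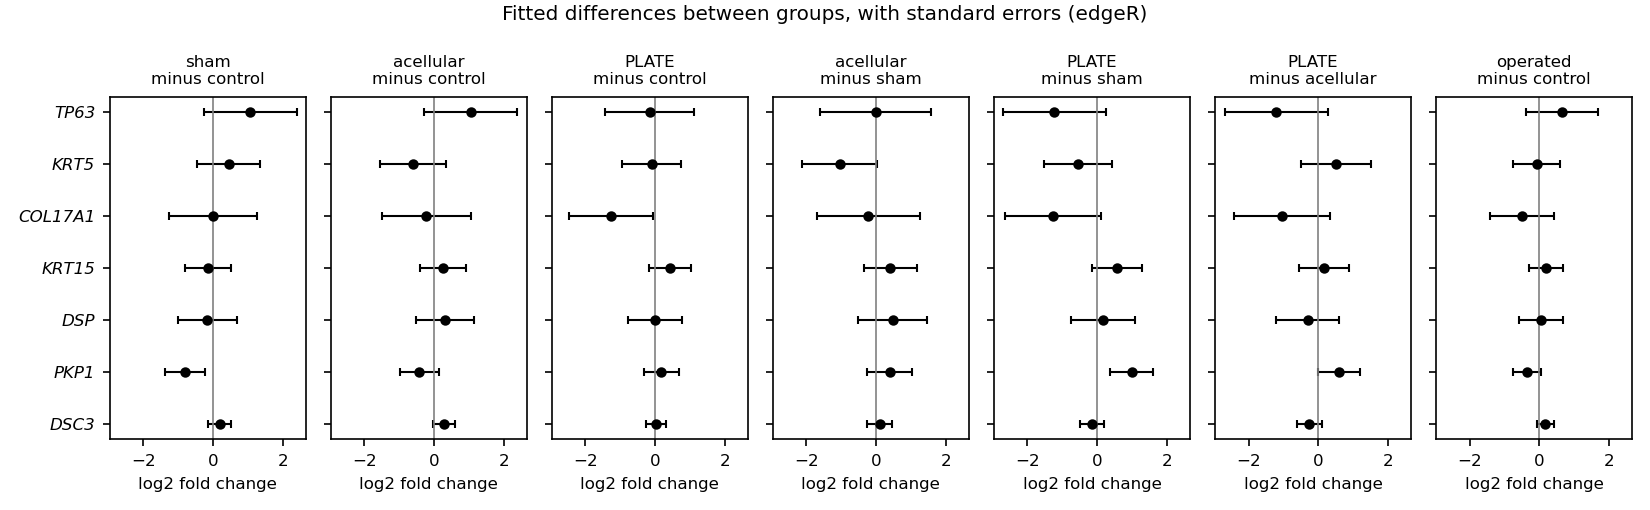
Log2 fold change of each gene in the 7 comparisons, with bars of 1 standard error on either side, from the edgeR fit of all 16 libraries. Bars are widest for TP63 and COL17A1 and narrowest for DSC3, and no difference passed the threshold.

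Related junction and basal layer genes gave the same count of calls, 0 in each direction in every comparison. Of 9 further desmosome genes listed, 7 had a row and 5 were tested. DSG2, the desmoglein of simple and basal epithelium, ranged from 22.6 to 154 CPM, JUP, plakoglobin, from 30.1 to 97.7 CPM, and DSC2, a widely expressed desmocollin, from 9.06 to 104.7 CPM. DSG1, the desmoglein of upper squamous layers, had 47 counts in all libraries together and was not tested. All 5 tested genes were fitted lower in PLATE than in acellular, at a median log2 fold change of -0.34 against 0.02 for all genes, and without PLATE 1 this was 3 of 5 at a median of -0.08.

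For the hemidesmosome and basement membrane list, 8 of 13 genes had a row and all 8 were tested, with a median log2 fold change of 0.04 in operated against control, which was 0.32 without control 9, 0.12 without PLATE 1 and -0.02 without control 2. ITGB1, the integrin beta 1 chain, which muscle and stroma also express, ranged from 1176 to 4550 CPM and was highest in control 2. DST, the plakin dystonin, ranged from 106.7 to 495 CPM. LAMA3, the alpha chain of the epithelial laminin 332, ranged from 17.2 CPM in control 2 to 271 CPM in acellular 10. Of 34 regulators of squamous epithelium listed, 24 had a row and 20 were tested, with 5 fitted higher and 15 lower in operated animals at a median of -0.16. Without control 9 this split was 10 higher and 10 lower at a median of 0.003697, so it rests on that library. The most abundant of them, STAT3, FGFR2 and JAG1, are used by many cell types. GRHL2, a transcription factor of epithelial junction genes chosen after its values were seen, had 0 counts in control 2 and up to 23.7 CPM elsewhere.

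The list of wound-activated keratinocyte genes held 11 of 20 in the table and 10 tested. All 10 were fitted lower in operated than in control animals, at a median log2 fold change of -0.65 against -0.03 for all genes, and 0 passed. Without control 9 this was 4 higher and 6 lower at a median of -0.45, and without PLATE 1 again 0 higher and 10 lower at a median of -1.24. In the fit of all libraries the operated groups did not share a direction. Sham and acellular each had all 10 lower than control, at medians of -1.98 and -1.12. PLATE had 9 higher and 1 lower at a median of 1.19, and this list was not refitted against control without PLATE 1. The summed level of the 11 genes was 4131 CPM in PLATE 1 and 331, 616 and 390 CPM in PLATE 5, 9 and 13. In control it ran from 169 to 1307 CPM, so the PLATE direction may rest on PLATE 1. In PLATE against acellular all 10 were fitted higher, at a median of 2.09, which was 0.57 with 7 of 10 higher without PLATE 1. The 3 most abundant members, S100A12, S100A9 and S100A8, are also neutrophil genes, and PLATE 1 had 942, 1191 and 945 CPM of them. The summed leukocyte markers (10 of 13 in the table, S100A8 and S100A9 among them) ran from 1254 to 14740 CPM in PLATE, from 633 to 2961 CPM in acellular, from 533 to 1134 CPM in sham and from 577 to 3502 CPM in control. Their part in the result was not tested. KRT16, a keratin induced in wounded epidermis, was at 42.0 CPM in PLATE 1, and KRT17 ranged from 4.44 to 79.2 CPM (control 25). The latter values were chosen after they were seen.

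Among genes that are not members, the 5 with the highest mean Pearson correlation with the 7 members over the 16 libraries were FERMT1 (0.569), ARHGAP28 (0.569), ANKRD55 (0.568), ATP8A2 (0.565) and ALCAM (0.564). Each of these 5 was lowest in control 2, and the correlations were not recomputed without that library. FERMT1 encodes kindlin-1, an integrin activator of basal keratinocytes, and ranged from 0 counts in control 2 to 11.3 CPM in PLATE 5. ALCAM, a cell adhesion molecule, ranged from 8.55 to 52.8 CPM. For single members, chosen after the data were seen, the nearest gene was KRT7 for KRT15 (r = 0.981) and PKP2, the plakophilin of simple epithelia and heart, for DSP (r = 0.989). KRT7 is a keratin of simple epithelium, and both genes were lowest in control 2, at 1.26 CPM for KRT7 and 0.900 CPM for PKP2. Their r were also not recomputed without control 2. Uroplakin genes, markers of urothelium, were looked up after the data were seen. UPK1B reached 3.31 CPM at most, with a median of 1.56 CPM, and UPK2 reached 1.35 CPM. Over all libraries the medians of TP63 and COL17A1 were 2.92 and 2.13 CPM. UPK2 ranked 4 among the genes nearest to KRT5 (r = 0.821). Whether urothelium was part of the samples was not tested.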

How the data were processed

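Poly(A) RNA of vaginal tissue was made into stranded libraries and sequenced on an Illumina NovaSeq, per the labels' protocols. FastQC, HISAT2 2.2.1 and featureCounts are named in the submitters' processing notes, while the genome build, annotation and strand setting are not given in the sources used here. The authors deposited unnormalized counts by gene symbol, with 1 line that pools reads of genes without a symbol. Its share was 22.9 to 28.5% of all counts (20992063 to 30695000 per library), and it was left out of library sizes and tests. Columns were matched to samples by their trailing index.

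After filterByExpr (10942 of 13001 genes kept) and TMM scaling, edgeR 4.0.16 in R 4.3.3 gave quasi-likelihood F tests. The model held the 16 libraries together, 1 coefficient for each group, with 12 residual degrees of freedom. Benjamini-Hochberg adjustment covered every tested gene, and the threshold was 0.05. Standard errors are the log2 fold change divided by the root of F. Log2 CPM used a prior count of 2, and correlations used 100000 resamples. The test was tried on simulated data with known changes. The 10 members and the related lists were chosen with earlier results of these data known. Named genes are all members, genes of a related list past the threshold or else its 3 with the highest mean CPM, and the 5 non-members with the highest mean correlation with the members. Alternatives were DESeq2 size factors, library sizes with the pooled line, no low-count filter, DESeq2 1.42.0, limma 3.58.1 voom with sample weights, models of only the groups compared, and libraries left out. Replicates are different animals within a group by their numbers. The edgeR p-values set group differences against the spread between these animals. The permutation p-values came from shuffling the 16 libraries without regard to group.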

Additional observations from a re-analysis of the deposited data

Results flagged for a closer look

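Of 14 sets of values searched (7 genes in the control and PLATE groups), 3 held a library far from the rest of its group on the log2 scale. Chance gives about 1 in 20 for a single set. The sets share libraries and are not independent, so the number of flags cannot be set against that rate. DSP in control 2 stood at 1.35 CPM, with a gap to the next control of 0.723 of the whole range. PKP1 in control 2 stood at 0.54 CPM with a gap of 0.644 of the range. PKP1 in PLATE 1 stood at 6.47 CPM with a gap of 0.923 of the range, and the other PLATE libraries lay between 2.66 and 2.85 CPM.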

How the results depend on the processing

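For the 7 members, 0 were called in every comparison under every alternative. Over all genes, 0 were called under the alternatives other than 2. The DESeq2 test called 10 genes for acellular against control, 1 for acellular against sham, 14 for PLATE against sham, 1 for PLATE against acellular, 1 for operated against control and 1 in the joint test, and voom with quality weights called 72 for acellular against sham. Of the recomputed log2 fold changes of members, 1084 kept their sign and 85 changed it, none of them called. With DESeq2 size factors, DSP in PLATE against control was -0.004171 and TP63 in acellular against sham 0.005401. With the pooled line in the library size DSP in PLATE against control was -0.007418, and with the DESeq2 test -0.003664, with TP63 in acellular against sham at 0.006552. With voom, sham against control was -0.0656 for TP63, -0.25 for KRT5 and 0.26 for KRT15, PKP1 in PLATE against control was -0.25 and TP63 in acellular against sham 1.18. Without control 2 and PLATE 1, PKP1 in PLATE against control was -0.45, TP63 in acellular against sham 0.000287, DSP in PLATE against acellular 0.0462, and operated against control -0.0319 for KRT15 and -0.0724 for DSP. Without control 9 as well, KRT15 in sham against control was 0.0852, PKP1 in PLATE against control -0.34 and DSP in PLATE against acellular 0.0465.

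With each library left out in turn, the log2 fold changes that changed sign ran as follows. Sham against control ran from -1.82 to 2.23 for TP63, -0.92 to 1.05 for KRT5, -0.37 to 0.38 for KRT15, -0.60 to 0.19 for DSP and -1.93 to 0.63 for COL17A1. Acellular against control ran from -0.15 to 0.78 for KRT15, -0.0133 to 0.55 for DSC3 and -1.53 to 0.41 for COL17A1. PLATE against control ran from -1.79 to 1.00 for TP63, -0.52 to 0.50 for KRT5, -0.11 to 0.20 for DSC3, -0.23 to 0.34 for PKP1 and -0.49 to 0.38 for DSP. Acellular against sham ran from -0.68 to 2.87 for TP63, -1.52 to 0.32 for KRT5, -0.0133 to 0.65 for KRT15, -0.20 to 0.36 for DSC3 and -1.52 to 1.70 for COL17A1. PLATE against sham ran from -2.86 to 1.66 for TP63, -1.05 to 0.81 for KRT5, -0.33 to 0.60 for DSP and -3.24 to 0.66 for COL17A1. PLATE against acellular ran from -0.11 to 0.57 for KRT15, -0.53 to 0.0397 for DSC3, -0.80 to 0.0678 for DSP and -3.01 to 0.26 for COL17A1. Operated against control ran from -0.31 to 1.81 for TP63, -0.54 to 0.51 for KRT5, -0.0556 to 0.70 for KRT15, -0.20 to 0.31 for DSP and -1.16 to 0.14 for COL17A1. The cause of these changes was not tested.

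The 3 relations among TP63, KRT5 and COL17A1 passed the threshold under every alternative tried, chosen after seeing the data (r from 0.80 to 0.865 for TP63 and KRT5, 0.891 to 0.943 for TP63 and COL17A1 and 0.752 to 0.857 for KRT5 and COL17A1 with each library left out). Other relations changed sign: TP63 with KRT15 ran from -0.312 to 0.337, TP63 with PKP1 from -0.134 to 0.289, KRT5 with KRT15 from -0.185 to 0.581 and KRT5 with DSC3 from -0.0264 to 0.483. Without control 2 and PLATE 1 these were -0.312, -0.155 and -0.201 for the pairs other than KRT5 with DSC3, and without control 9 as well -0.218, -0.0584 and -0.224. No paired analysis was possible because the groups share only the number 9, in control and PLATE. Depth limits TP63, COL17A1 and PKP1 in control 2, at 2, 4 and 6 counts.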
